A study of Mus musculus with 12 samples.

Results

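BAF complexes (BRG1- or BRM-associated factor, the mammalian SWI/SNF chromatin remodellers) use the energy of ATP to slide and evict nucleosomes, and several of their positions can be filled by more than 1 paralogue. In the mouse brain, dividing neural progenitors are known to carry a form with ACTL6A, PHF10 or DPF2 and SS18, and postmitotic neurons a form with ACTL6B, DPF1 or DPF3 and SS18L1; the exchange accompanies exit from the cell cycle. The catalytic ATPase of either form is SMARCA4 (BRG1) or SMARCA2 (BRM). The 10 genes of these positions were taken by symbol: 4 progenitor-type subunits (Actl6a, Phf10, Dpf2, Ss18), 4 neuron-type subunits (Actl6b, Dpf1, Dpf3, Ss18l1) and 2 ATPases (Smarca4, Smarca2), out of 55487 genes in the files. Each matched 1 row, and all 10 were among the 16798 genes that passed the filter on low counts.

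The values are RNA-seq measurements of dorsal cortex of mouse embryos, from ventricular zone fragments cut by laser microdissection. The ventricular zone is the layer at the lateral ventricle where radial glia divide and produce neurons and, later, astrocytes. Mice with a conditional knock-in in the ROSA26 locus express, once Cre removes a stop sequence, the cyclin-dependent kinase inhibitor p18 (INK4C, the product of Cdkn2c) and, split from it by a P2A peptide, the fluorescent protein mKO2. There were 4 groups of 3 libraries: E16.5 p18mKO2+ and E16.5 p18mKO2-, and E13.5 p18mKO2+ and E13.5 p18mKO2-. The labels give p18mKO2 over-expression as the genotype of p18mKO2+ and call the genotype of p18mKO2- normal, and all 4 groups received tamoxifen. The Cre driver, the strain, the time of tamoxifen and whether p18mKO2- embryos carried the cassette are not stated by the labels. Nor do the labels say that replicates are separate embryos, so the p-values reflect spread among libraries that may be technical in part.

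Estimated counts totalled 17101971 to 21837088 per library. Of the 10 genes, Dpf3 had 23 to 116 counts per library and the other genes 341 to 11588. The 10 radial glia markers summed to 1447 to 2907 TPM (the deposited level per length, scaled to an equal sum in every library) in the 12 libraries, with none of the 10 at 0 throughout, and the 10 neuron markers summed to 1214 to 4829.8 TPM. Sex was not balanced between the groups. Of the 3 libraries of each group, E16.5 p18mKO2+ had 2 with Y-linked transcripts and 1 with both these and Xist, E16.5 p18mKO2- had 2 with Xist and 1 with Y-linked transcripts, E13.5 p18mKO2+ had 1 of each kind, and all 3 of E13.5 p18mKO2- had Xist alone (above 5% of the highest library). The libraries with both, replicate 3 of each p18mKO2+ group, may hold more than 1 embryo. The part of sex in the differences was not tested, and calls that ended without these 2 libraries are named below; over all genes 796 were then called for the p18 effect at E13.5, against 1810 with them. Cdkn2c, the gene in the cassette, stood at 38.2, 43.5 and 32.1 TPM in E16.5 p18mKO2+ and 19.6, 28.7 and 13.7 TPM in E16.5 p18mKO2-, and at 27.7, 32.6 and 30.2 TPM in E13.5 p18mKO2+ and 26.5, 21.4 and 16.1 TPM in E13.5 p18mKO2-. These TPM values did not overlap at either stage, while in the count test Cdkn2c was not called (log2 change 0.32 at E16.5, edgeR adjusted p = 1, and 0.14 at E13.5, adjusted p = 0.798). The median gene stood 0.27 (E16.5) and 0.17 (E13.5) higher in the p18 effect by TPM than by CPM, on the log2 scale over 11336 genes, so a TPM level set between groups carries that shift. A shift common to all genes cancels in shares and marker ratios, while a change in the deposited length of a single gene does not.

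At E13.5 the neuron-type subunits Actl6b, Dpf1 and Ss18l1 and the ATPase Smarca2 rose in p18mKO2+ libraries, by 1.73- to 2.29-fold, and none of the 4 progenitor-type subunits passed the edgeR test (2 of 4 at an unadjusted p under 0.05, 1 by DESeq2 and 0 by limma-voom). Thus 4 of the 10 genes were called higher and 0 lower (edgeR quasi-likelihood test, Benjamini-Hochberg adjusted p under 0.05), where 10.8% of all genes tested were called, 7.29% higher and 3.49% lower. Of all calls 67.6% were higher, and 87.5% of the 1063 calls made by limma on log2(TPM + 1). The median log2 change was 1.07 over the 4 neuron-type genes and -0.24 over the 4 progenitor-type genes, beside 0.01 over all genes tested. The groups did not overlap in 7 of the 10 genes, against 30.7% of all genes tested; 5 of the 7 were higher and 2 lower in p18mKO2+, against 16.6% and 14.1% of all genes.

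At the actin-related position, Actl6b, which encodes the neuronal actin-like subunit BAF53B (GRCm38 chromosome 5, 137553517 to 137569582, plus strand), stood at 46.4, 45.1 and 78.2 CPM (read counts scaled to library size with TMM factors) in E13.5 p18mKO2+, against 25.4, 18.5 and 30.1 CPM in E13.5 p18mKO2-. All 3 p18mKO2+ libraries lay above all 3 p18mKO2- libraries, and replicate 3, one of those with both sexes, was far above the other p18mKO2+ replicates. The p18mKO2+ libraries averaged 56.6 ± 18.7 CPM and the p18mKO2- libraries 24.7 ± 5.84 CPM (SD, n = 3 each), and the log2 change was 1.2 ± 0.23 (SE, edgeR; adjusted p = 0.00482). Without the libraries of both sexes it was 0.89 (adjusted p = 0.0231). Actl6a, which encodes the progenitor paralogue BAF53A (chromosome 3, 32706298 to 32726973, plus strand), stood at 88.8, 97.2 and 64.1 CPM in p18mKO2+ and 115, 119.8 and 107 CPM in p18mKO2-. These groups did not overlap either, with p18mKO2+ lower, but the log2 change of -0.45 ± 0.19 did not pass (edgeR adjusted p = 0.161).

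Actl6a is the member with a known microRNA input: in mouse neurons, miR-9-3p (also written miR-9*) and miR-124 are known to repress it through its 3' untranslated region. The mature miR-9 strands, from RefSeq (GRCm38.p6), are shown because their host transcripts are measured here, with the seed (bases 2 to 8) in capitals.
mmu-miR-9-3p: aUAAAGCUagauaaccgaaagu
mmu-miR-9-5p: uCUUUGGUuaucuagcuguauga
A match to the miR-9-3p seed starts at base 38 after the stop codon of Actl6a (GENCODE, GRCm38), and is printed with its flanks and with the bases opposite the seed in capitals.
Actl6a, chr3:32726630-32726652, plus strand: caacgtctgtAGCTTTAgtacac
Such a match is found in 2.42% of 1777 transcripts whose 3' untranslated region is within 20% of the same length. Rest, which encodes the repressor of neuronal genes REST, has 1 match to the other strand, miR-9-5p, a sequence found in 28.6% of 1929 transcripts of similar length.
Rest, chr5:77286166-77286188, plus strand: tctgaggcaaACCAAAGgtatat
A match of letters does not say that a site is used, and mature microRNAs were not measured in these polyA libraries.

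The SS18 position followed the same direction. Ss18l1, which encodes the neuronal subunit CREST (chromosome 2, 180042509 to 180070201, plus strand), stood at 75.8, 62.5 and 86.4 CPM in E13.5 p18mKO2+, against 40.4, 31.4 and 27.8 CPM in E13.5 p18mKO2-. Every p18mKO2+ library was above every p18mKO2- library, and the log2 change was 1.17 ± 0.17 (edgeR, adjusted p = 0.000955). Its paralogue Ss18 stood at 86.6, 83.3 and 77.1 CPM in p18mKO2+ and 105, 96.5 and 99.8 CPM in p18mKO2-, lower in p18mKO2+ without overlap. Its log2 change, -0.29 ± 0.11, was not called by edgeR (adjusted p = 0.116), while DESeq2 gave an adjusted p of 0.0409. Without the libraries of both sexes Ss18l1 stood at 1.06 (adjusted p = 0.00803).

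The double PHD finger position holds 4 of the genes. Dpf1, a neuronal member with paired PHD fingers that bind histone tails (chromosome 7, 29303951 to 29318243, plus strand), stood at 66.6, 70.2 and 89.3 CPM in E13.5 p18mKO2+ and 45.1, 45.7 and 39.8 CPM in E13.5 p18mKO2-, again without overlap, by 0.79 ± 0.14 on the log2 scale (edgeR, adjusted p = 0.00288, and 0.65, adjusted p = 0.0205 without the libraries of both sexes). Dpf3, the other neuronal member, was low throughout, at 5.14, 4.21 and 4.95 CPM in p18mKO2+ and 1.25, 4.72 and 1.35 CPM in p18mKO2-. Its p18mKO2- replicate 2 lay among the p18mKO2+ libraries, and the log2 change of 0.96 ± 0.53 did not pass (edgeR adjusted p = 0.282, and 0.0413 without that library). Dpf2, the broadly expressed member, stood at 101, 102 and 102 CPM in p18mKO2+ and 121, 121 and 98.97 CPM in p18mKO2- (log2 change -0.16 ± 0.15, edgeR adjusted p = 0.565, and 0.23 on the log2(TPM + 1) scale). Phf10, a progenitor subunit of the PBAF form, stood at 77.9, 92.6 and 75.2 CPM in p18mKO2+ and 102, 97.3 and 81.9 CPM in p18mKO2- (log2 change -0.20 ± 0.13, edgeR adjusted p = 0.37). The groups overlapped for both.

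Of the ATPases, Smarca2 (chromosome 19, 26605050 to 26778322, plus strand) stood at 125, 112 and 121 CPM in E13.5 p18mKO2+, against 67.6, 67.7 and 61.3 CPM in E13.5 p18mKO2-. The replicates of each group lay close together and the groups well apart, 0.87 ± 0.21 on the log2 scale (edgeR, adjusted p = 0.0183). The call ended without the libraries of both sexes (log2 change 0.86, adjusted p = 0.0683), without p18mKO2+ replicate 1 (0.0614) and without p18mKO2- replicate 2 (0.0509) or 3 (0.0609). It also ended with limma on log2(TPM + 1) (0.76, adjusted p = 0.0735). Smarca4 (chromosome 9, 21616169 to 21704230, plus strand) stood at 523, 497 and 495 CPM in p18mKO2+ and 493, 437 and 431 CPM in p18mKO2-; p18mKO2+ was higher without overlap, by 0.15 ± 0.17 on the log2 scale, which did not pass (edgeR adjusted p = 0.625).

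**Figure D1:**
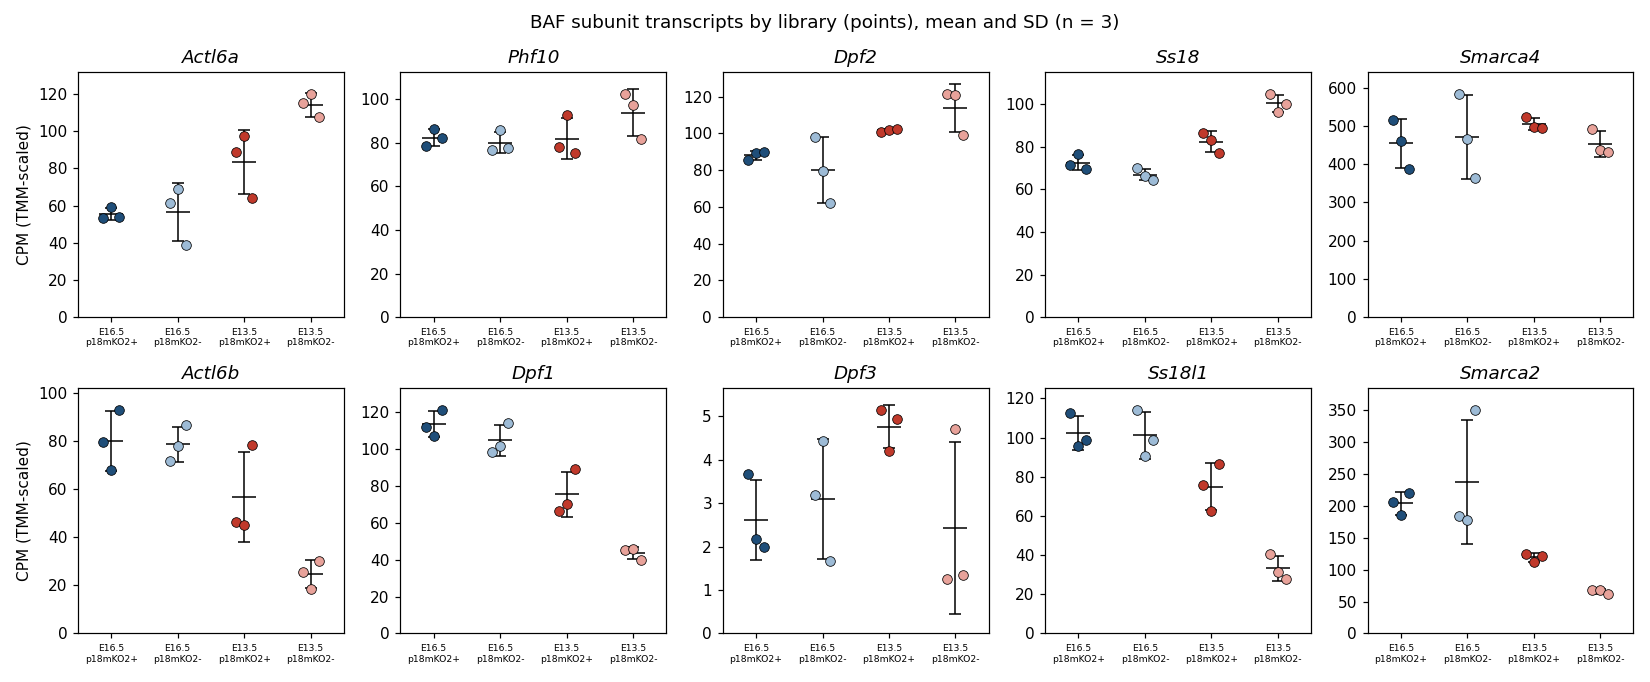
CPM (TMM-scaled) of the 10 BAF genes in each of the 12 libraries, with 1 panel per gene, progenitor-type subunits and Smarca4 in the upper row and neuron-type subunits and Smarca2 in the lower row. Points are libraries (replicates 1 to 3 from left to right) and bars the mean and SD of 3; Actl6b, Dpf1, Ss18l1, Smarca2 and Smarca4 are higher, and Actl6a and Ss18 lower, in all E13.5 p18mKO2+ libraries than in any of E13.5 p18mKO2-, and at E16.5 no gene separates the groups in CPM.

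Markers of neurons and of cycling cells moved in the same libraries. The 10 neuron markers summed to 2811 to 3469 TPM in E13.5 p18mKO2+ and 1214 to 1528 TPM in E13.5 p18mKO2-, with 6 of 10 called higher and 0 lower. The 10 cycling markers summed to 1044 to 1391 TPM in p18mKO2+ and 1843 to 1962 TPM in p18mKO2-, with 0 of 10 called higher and 7 lower. Radial glia markers summed to 1935 to 2491 TPM in p18mKO2+ and 2541 to 2907 TPM in p18mKO2- (0 of 10 higher, 5 lower), and GABAergic markers to 284 to 417 TPM in p18mKO2+ and 75.8 to 223 TPM in p18mKO2- (1 of 6 higher). Astrocyte markers summed to 7.14 to 13.8 TPM in p18mKO2+ and 2.26 to 4.17 TPM in p18mKO2- (2 of 3 tested higher), and oligodendrocyte lineage markers to 14.2 to 19.8 TPM in p18mKO2+ and 4.93 to 12.8 TPM in p18mKO2- (2 of 5 higher), while 2 of 7 erythroid markers were lower. Endothelial markers summed to 51.9 to 56.5 TPM in p18mKO2+ and 30.98 to 47.3 TPM in p18mKO2- (1 of 5 higher). Choroid plexus and Cajal-Retzius markers varied widely between libraries, at 120 to 1065 TPM in p18mKO2+ and 59.5 to 514 TPM in p18mKO2- (0 of 5 called). At E16.5 that sum ran from 503 to 2709 TPM in p18mKO2+ and from 255 to 754 TPM in p18mKO2-. No marker of these lists was at 0 in all libraries. In bulk tissue, fewer cells of a type and less RNA per cell cannot be told apart, and the part of tissue makeup in the subunit changes was not tested.

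The levels were also set against the marker sums, a ratio chosen after the values were seen. Per 1000 TPM of the neuron marker sum, Actl6b stood at 19.1, 20.7 and 32.2 TPM in p18mKO2+ and 21.8, 16.1 and 22.5 TPM in p18mKO2-, and these groups overlapped. Ss18l1 stood at 10.3, 8.65 and 10.6 TPM in p18mKO2+ and 9.82, 9.46 and 6.93 TPM in p18mKO2- on this scale. Dpf1 stood at 41.01, 27.02 and 38.01 TPM in p18mKO2+ and 34.3, 39.9 and 26.1 TPM in p18mKO2-, and both genes overlapped between groups. Smarca2 ran the other way, at 43.6, 36.9 and 42.8 TPM in p18mKO2+ and 46.1, 71.9 and 46.9 TPM in p18mKO2-, lower in p18mKO2+ without overlap. Per 1000 TPM of the cycling marker sum, Actl6a stood at 70.7, 64.5 and 62.9 TPM in p18mKO2+ and 52.5, 59.02 and 49.1 TPM in p18mKO2-, so on this scale p18mKO2+ was the higher group. This was not particular to Actl6a: Phf10, Dpf2, Ss18 and Smarca4 were also higher in p18mKO2+ on this scale, without overlap. Smarca4 stood at 125, 103 and 148 TPM in p18mKO2+ and 70.01, 59.6 and 59.3 TPM in p18mKO2-. The cycling sum that divides all of them was itself lower in p18mKO2+.

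The level per length within each position gave the makeup of the transcript pool. At E13.5, Actl6b made up 39.2, 39.4 and 62.99% of Actl6a and Actl6b TPM in p18mKO2+ and 24.7, 14.5 and 25.6% in p18mKO2-. In p18mKO2+ replicate 3 it was the larger of the pair. Ss18l1 made up 33.5, 30.6 and 37.7% of its pair in p18mKO2+ and 19.3, 16.2 and 12.8% in p18mKO2-, and Dpf1 with Dpf3 made up 37.4, 31.9 and 44.1% of the 4 PHD finger genes in p18mKO2+ and 22.6, 19.4 and 18.9% in p18mKO2-. The shares of these 3 positions did not overlap between the groups. Smarca2 made up 45.5, 42.1 and 48.96% of the ATPase pair in p18mKO2+ and 34.2, 42.8 and 37.3% in p18mKO2-, with overlap. By CPM, which does not divide by length, the Smarca2 share was 19.1% ± 0.672 in p18mKO2+ and 12.6% ± 0.686 in p18mKO2- (SD, n = 3 each), without overlap. The mean CPM share of Actl6b was 40.3% in p18mKO2+ and 17.8% in p18mKO2-, and that of Ss18l1 47.5% in p18mKO2+ and 24.7% in p18mKO2-. For Dpf1 with Dpf3 it was 30.3% in p18mKO2+ and 18.2% in p18mKO2-. The deposited length was 1363 to 2121 bases for Smarca2 over the libraries and 5680 to 5941 bases for Smarca4.

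**Figure D2:**
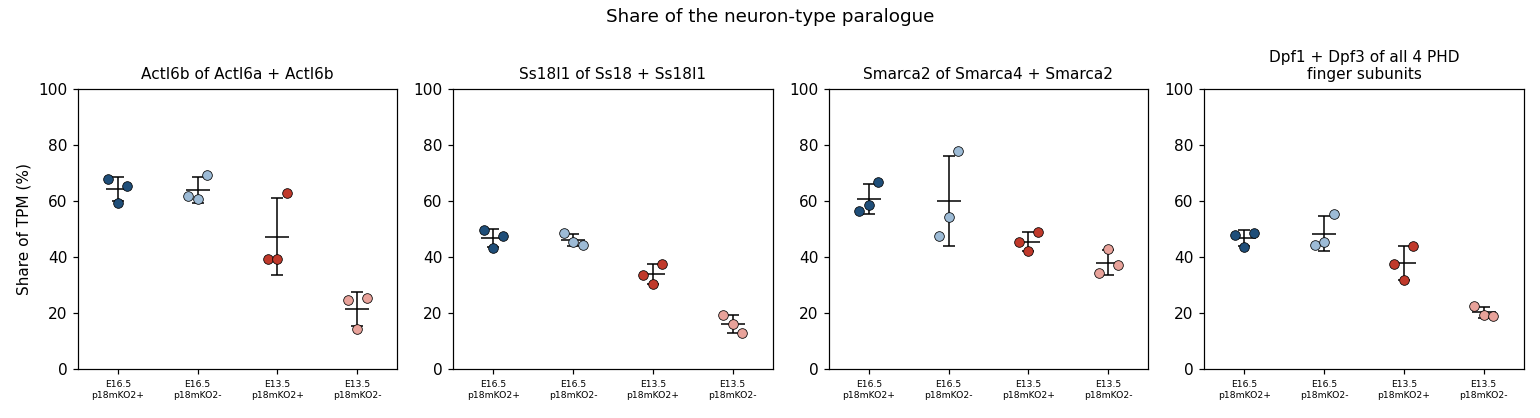
Share of TPM (%) that the neuron-type paralogue makes up at its position in each library, with points for libraries and bars for the mean and SD of 3. The share of Actl6b, of Ss18l1 and of Dpf1 with Dpf3 is higher in E13.5 p18mKO2+ than in E13.5 p18mKO2-, and at E16.5 both groups stand at similar values, 64.2% and 63.9% for Actl6b.

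In order of level per length, E13.5 p18mKO2+ had Smarca4 first at 151 ± 7.11 TPM and E13.5 p18mKO2- likewise at 121 ± 13.6 TPM (SD, n = 3 each). In p18mKO2+ the first 7 genes, from Smarca4 through Smarca2, Dpf2, Dpf1, Actl6a and Actl6b to Phf10, each overlapped with the next, while Ss18, Ss18l1 and Dpf3 stood apart below them. In p18mKO2- Actl6a came second at 103 ± 12.6 TPM, and Dpf1, Actl6b, Ss18l1 and Dpf3 filled the last 4 places with no overlap between neighbours. At E16.5 Smarca2 led, with 224 ± 11.3 TPM in p18mKO2+, above the next gene without overlap, and 203 ± 85.1 TPM in p18mKO2-, where it overlapped with Smarca4.

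At E16.5 none of the 10 genes separated p18mKO2+ from p18mKO2- in CPM. edgeR called 0 of the 10 and 0% of the 16798 genes tested, DESeq2 called 0 of the 10 and 16 genes in all, and limma-voom 0 of the 10 and 2 genes in all. At an unadjusted p under 0.05 there were 0 of the 10 and 426 of all genes. The log2 changes of the 10 genes lay between -0.25 and 0.14 with SE of 0.11 to 0.53, and none of the 10 had groups that did not overlap in CPM, against 7.95% of all genes tested (4.07% higher and 3.88% lower). In TPM 2 of the 10 did not overlap: Dpf1 stood at 176, 158 and 133 TPM in p18mKO2+ and 118, 115 and 108 TPM in p18mKO2-, and Actl6b at 126, 101 and 105 TPM in p18mKO2+ and 91.04, 97.2 and 81.6 TPM in p18mKO2-. On log2(TPM + 1) neither was called by limma (0.44, adjusted p = 0.582, for Dpf1 and 0.29, adjusted p = 0.634, for Actl6b). Actl6b stood at 79.6, 67.8 and 92.6 CPM in p18mKO2+ and 71.7, 77.6 and 86.3 CPM in p18mKO2- (log2 change 0.03 ± 0.22). Actl6a stood at 53.1, 58.98 and 53.99 CPM in p18mKO2+ and 61.1, 68.9 and 38.9 CPM in p18mKO2- (-0.03 ± 0.20). Ss18l1 stood at 112, 95.98 and 98.7 CPM in p18mKO2+ and 114, 90.5 and 98.9 CPM in p18mKO2- (0.02 ± 0.16). All 6 libraries carried these genes at interleaved levels. Smarca2 stood at 206, 186 and 221 CPM in p18mKO2+ and 185, 178 and 350.0 CPM in p18mKO2-, with p18mKO2- replicate 3 far above the rest; that library also had the lowest Actl6a and Smarca4 of its group and the lowest cycling marker sum of the 12, 456 TPM. The neuron marker sum was 4294 to 4829.8 TPM in p18mKO2+ and 3884 to 4557 TPM in p18mKO2-. Other sums did not overlap at E16.5: GABAergic markers summed to 199 to 363 TPM in p18mKO2+ and 92.4 to 105 TPM in p18mKO2-, and astrocyte markers to 22.9 to 26.03 TPM in p18mKO2+ and 9.49 to 16.02 TPM in p18mKO2-. Oligodendrocyte lineage markers did not overlap either, at 22.89 to 35.57 TPM in p18mKO2+ and 15.5 to 19.85 TPM in p18mKO2-. Their part was not tested.

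The remaining genes at E16.5 had log2 changes of -0.25 to 0.14, none called. Dpf1 stood at 112, 107 and 121 CPM in p18mKO2+ and 98.4, 102 and 114 CPM in p18mKO2-, and Ss18 at 71.5, 76.6 and 69.6 CPM in p18mKO2+ and 69.8, 66.4 and 64.6 CPM in p18mKO2-. Dpf2 stood at 85.3, 89.4 and 89.7 CPM in p18mKO2+ and 98.2, 79.6 and 62.1 CPM in p18mKO2-, with the p18mKO2+ libraries inside the p18mKO2- range. Phf10 lay between 76.9 and 86.3 CPM in all 6 libraries, Smarca4 between 364 and 583 CPM, and Dpf3 between 1.68 and 4.43 CPM. The shares of the neuron-type paralogue were 64.2% ± 4.27 in p18mKO2+ and 63.9% ± 4.65 in p18mKO2- for Actl6b, and 46.8% ± 3.16 in p18mKO2+ and 46.1% ± 2.18 in p18mKO2- for Ss18l1 (SD, n = 3 each).

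Between the stages, subunit transcripts in p18mKO2- tissue changed in both directions. At E16.5, Actl6b, Ss18l1, Dpf1 and Smarca2 rose and Actl6a, Ss18 and Dpf2 fell relative to E13.5, 7 of the 10 genes, where 29.8% of all genes tested were called (16.4% higher and 13.4% lower). Groups did not overlap in 40.4% of all genes tested, 21% higher and 19.4% lower. Actl6b averaged 78.6 ± 7.36 CPM at E16.5 and 24.7 ± 5.84 CPM at E13.5 (SD, n = 3 each), a 3.19-fold difference (log2 change 1.67 ± 0.23, SE; edgeR adjusted p = 0.00011). Ss18l1 averaged 101 ± 11.8 CPM at E16.5 and 33.2 ± 6.49 CPM at E13.5 (1.60 ± 0.17, edgeR adjusted p = 1.57e-05), and Dpf1 105 ± 8.26 CPM at E16.5 and 43.5 ± 3.23 CPM at E13.5 (1.26 ± 0.14, adjusted p = 1.96e-05). Smarca2 averaged 238 ± 97.4 CPM at E16.5 and 65.5 ± 3.67 CPM at E13.5 (1.86 ± 0.22, adjusted p = 3.18e-05), and was still called without E16.5 replicate 3 (1.48). On the falling side, Actl6a averaged 56.3 ± 15.6 CPM at E16.5 and 114 ± 6.30 CPM at E13.5 (-1.02 ± 0.20, adjusted p = 0.00149), and Ss18 66.9 ± 2.64 CPM at E16.5 and 100.3 ± 4.11 CPM at E13.5 (-0.58 ± 0.11, adjusted p = 0.0012).

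Dpf2 averaged 79.95 ± 18.1 CPM at E16.5 and 114 ± 12.8 CPM at E13.5 in p18mKO2- (-0.51 ± 0.15, edgeR adjusted p = 0.0218), a call that ended without any 1 of E13.5 replicates 1 and 2 or E16.5 replicates 2 and 3 (adjusted p of 0.0624 to 0.0928) and without the libraries of both sexes (0.0504). The Dpf2 call also ended in an edgeR fit of these 2 groups alone (adjusted p = 0.0873) and with limma on log2(TPM + 1) (adjusted p = 0.177). Phf10 (log2 change -0.23 ± 0.13, adjusted p = 0.209), Smarca4 (0.05 ± 0.17, adjusted p = 0.848) and Dpf3 (0.35 ± 0.53, adjusted p = 0.679) did not pass. The neuron marker sum was 3884 to 4557 TPM at E16.5 and 1214 to 1528 TPM at E13.5, with 10 of 10 markers higher, and the cycling sum 456 to 873 TPM at E16.5 and 1843 to 1962 TPM at E13.5, with 10 of 10 lower; their part in the subunit changes was not tested. Per 1000 TPM of neuron markers, Actl6b stood at 21.97 ± 3.57 TPM at E16.5 and 20.2 ± 3.48 TPM at E13.5 (SD, n = 3 each), and Ss18l1 at 8.90 ± 2.26 TPM at E16.5 and 8.74 ± 1.58 TPM at E13.5. Other genes had a lower mean at E16.5 on this scale, with overlap. Dpf1 stood at 27.8 ± 3.53 TPM at E16.5 and 33.4 ± 6.97 TPM at E13.5, and Smarca2 at 48.2 ± 15.5 TPM at E16.5 and 55.0 ± 14.7 TPM at E13.5. Dpf3 stood at 0.604 ± 0.199 TPM at E16.5 and 1.79 ± 1.24 TPM at E13.5. Per 1000 TPM of cycling markers, the falling genes were higher at E16.5, and so were Phf10 and Smarca4, which were not called. Actl6a stood at 72.2 ± 7.42 TPM at E16.5 and 53.6 ± 5.03 TPM at E13.5. Ss18 stood at 61.6 ± 19.7 TPM at E16.5 and 32.7 ± 2.50 TPM at E13.5, and Dpf2 at 90.9 ± 13.3 TPM at E16.5 and 50.7 ± 11.1 TPM at E13.5. Phf10 stood at 87.1 ± 15.4 TPM at E16.5 and 47.3 ± 6.35 TPM at E13.5, and Smarca4 at 177 ± 23.5 TPM at E16.5 and 62.96 ± 6.11 TPM at E13.5.

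In p18mKO2+ tissue 1 of the 10 genes was called between the stages, where 1.64% of all genes tested were called (1.08% higher and 0.554% lower). Of all calls 66.2% were higher, and 91.0% of the 155 made on log2(TPM + 1). Dpf1 stood at 112, 107 and 121 CPM at E16.5 and 66.6, 70.2 and 89.3 CPM at E13.5, without overlap (0.59 ± 0.14, SE; edgeR adjusted p = 0.0471). This call rests on single libraries: leaving out each of the 12 in turn, 8 fits lost it, with adjusted p up to 0.166, and it was lost without the libraries of both sexes (0.0596). Smarca2 (0.77 ± 0.21, edgeR adjusted p = 0.0826) and Ss18l1 (0.45 ± 0.16, adjusted p = 0.202) were higher at E16.5 without overlap but did not pass, and Smarca2 had an adjusted p of 0.00164 without E16.5 p18mKO2- replicate 3, a library that enters through the shared estimate of spread. Actl6b stood at 0.50 ± 0.22 (adjusted p = 0.312), with E13.5 replicate 3 inside the E16.5 range, and at 0.83 (adjusted p = 0.0496) without that library. Actl6a stood at -0.59 ± 0.20 (adjusted p = 0.156), lower at E16.5 without overlap, and had an adjusted p of 0.0468 without E16.5 p18mKO2- replicate 3. Dpf3 (-0.87 ± 0.53), Dpf2 (-0.21 ± 0.15) and Ss18 (-0.18 ± 0.11) were also lower at E16.5 without overlap and did not pass, while Phf10 (0.01 ± 0.13) and Smarca4 (-0.15 ± 0.17) overlapped; groups did not overlap in 26.6% of all genes tested. Among markers in this comparison, 1 of 10 neuron, 2 of 3 astrocyte and 1 of 5 oligodendrocyte lineage markers were called higher, and 1 of 10 cycling, 1 of 10 radial glia and 2 of 7 erythroid markers lower; their part was not tested.

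Whether the p18 effect depended on stage was tested directly, as the effect at E16.5 minus that at E13.5. Of the 10 genes 1 was called, Ss18l1 at -1.15 ± 0.23 (SE, log2; edgeR adjusted p = 0.0198), where 2.7% of all genes tested were called (0.298% higher and 2.4% lower). Its effect was 0.02 at E16.5 and 1.17 at E13.5. The call ended without the libraries of both sexes (adjusted p = 0.119), without E13.5 p18mKO2+ replicate 1 (0.0582) or p18mKO2- replicate 2 (0.0526), and without E16.5 p18mKO2+ replicate 2 (0.0821) or 3 (0.0634). Actl6b (-1.17 ± 0.32, edgeR adjusted p = 0.0668), Smarca2 (-1.09 ± 0.30, adjusted p = 0.0706) and Dpf1 (-0.68 ± 0.19, adjusted p = 0.0794) had differences of the same sign that did not pass. DESeq2 called all 4 of these genes, with adjusted p of 0.0124, 0.0117 and 0.0215 for Actl6b, Smarca2 and Dpf1. Over all genes DESeq2 called 1108 (268 higher and 840 lower), against 453 by edgeR. Smarca2 stood at -0.69 (edgeR adjusted p = 0.037) without E16.5 p18mKO2- replicate 3 and was also called without replicate 1 or 2 of that group (0.0429 each), and Actl6b was called without E13.5 p18mKO2+ replicate 2 (0.0455). On log2(TPM + 1) Smarca2 stood at -0.54 (adjusted p = 0.548).

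**Figure D3:**
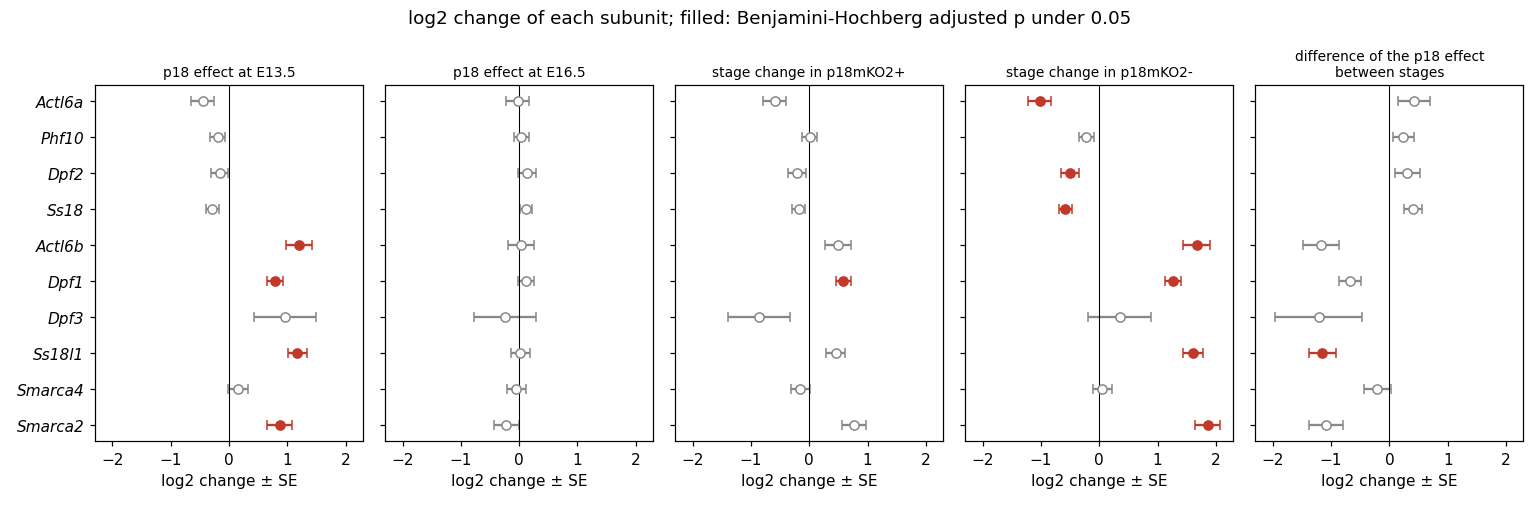
log2 change ± SE (edgeR) of the 10 genes in 5 comparisons, filled where the Benjamini-Hochberg adjusted p is under 0.05; p18 effects are p18mKO2+ over p18mKO2-, stage changes E16.5 over E13.5, and the last panel the E16.5 effect minus the E13.5 effect. Comparisons in neighbouring panels share libraries; 4 genes are called at E13.5, 0 at E16.5, 1 and 7 in the stage changes of p18mKO2+ and p18mKO2-, and 1 in the difference.

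Among 20 other subunits of BAF, PBAF and ncBAF, 3 rose and 0 fell in E13.5 p18mKO2+ relative to E13.5 p18mKO2-, with a median log2 change of 0.16, where 7.29% of all genes tested were called higher and 3.49% lower. Bcl11b, a zinc finger BAF subunit that is also a transcription factor of deep-layer neurons, stood at 343, 339 and 304 CPM in p18mKO2+ and 123, 100.4 and 112 CPM in p18mKO2- (1.56 ± 0.19, SE; edgeR adjusted p = 0.000387). Its paralogue Bcl11a stood at 434, 445 and 363 CPM in p18mKO2+ and 316, 249 and 287 CPM in p18mKO2- (0.54 ± 0.13, adjusted p = 0.0197), and Bicral, a subunit of the non-canonical form, at 39.5, 39.5 and 56.4 CPM in p18mKO2+ and 24.1, 28.00 and 28.8 CPM in p18mKO2- (0.74 ± 0.17, adjusted p = 0.0144). Bicral was not called without E13.5 p18mKO2+ replicate 3 or p18mKO2- replicate 1 (adjusted p = 0.0786 and 0.0614) or without the libraries of both sexes (0.105), and Bcl11a was not without p18mKO2+ replicate 1 or 2 or p18mKO2- replicate 2 (0.0846, 0.06 and 0.0893). With limma on log2(TPM + 1), Bicral had an adjusted p of 0.0552. The remaining 17 lay between -0.36 (Brd7) and 0.37 (Bcl7a). At E16.5 edgeR, DESeq2 and limma-voom each called 0 of the 20, with 1 at an unadjusted p under 0.05, and Bcl11b was farthest from 0 at 0.41 ± 0.19. There edgeR called 0% of all genes tested.

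In the stage change of p18mKO2-, 4 of these 20 rose (Bcl11b 1.11, Bicral 1.10, Bcl11a 0.96 and Arid1b 0.59, log2) and 2 fell (Smarcd2 -0.85 and Brd7 -0.45), with edgeR adjusted p of 0.000133 to 0.0188. The 6 calls are 6 of 20 genes, where 29.8% of all genes tested were called. Arid1b was not called without E13.5 replicate 3 (0.0687) or E16.5 replicate 1 (0.074), and Brd7 was not without E16.5 replicate 2 (0.0606), without a filter (0.0672) or in a fit of these 2 groups alone (0.0667). In that of p18mKO2+ 0 of 20 were called by edgeR, 1 by DESeq2 and 0 by limma-voom, with 3 at an unadjusted p under 0.05. Of all genes tested edgeR called 1.64% there. The core subunits Smarcb1 and Smarce1, chosen after their values were seen, stood at -0.01 ± 0.12 and 0.03 ± 0.11 at E13.5 and at -0.11 ± 0.12 and 0.05 ± 0.11 in the stage change of p18mKO2-. Dependence of the p18 effect on stage was called for Bcl11b (-1.15 ± 0.27, edgeR adjusted p = 0.0394) and for no other of the 20 by edgeR, where 2.7% of all genes tested were called. It was not called in 9 of the 12 fits that each left out 1 library.

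ATPases of other remodellers went in both directions at E13.5: of 17, 2 rose and 2 fell in p18mKO2+, with a median log2 change of -0.02, where 7.29% of all genes tested were called higher and 3.49% lower. Chd7, a remodeller of neural progenitors, stood at 119, 121 and 119.6 CPM in p18mKO2+ and 233, 209 and 237 CPM in p18mKO2-, without overlap (-0.92 ± 0.19, SE; edgeR adjusted p = 0.007). Hells, which acts with DNA methylation in dividing cells, stood at 89.1, 97.1 and 74.6 CPM in p18mKO2+ and 153, 162 and 156 CPM in p18mKO2- (-0.85 ± 0.17, adjusted p = 0.00609, and -0.54, adjusted p = 0.269, on log2(TPM + 1)). Chd3 and Chd5, NuRD ATPases known from later cortical neurons in the mouse, stood at 0.73 ± 0.17 (adjusted p = 0.0165) and 1.56 ± 0.41 (adjusted p = 0.0277). Chd5 was at 29.4, 17.5 and 73.1 CPM in p18mKO2+ and 18.01, 13.3 and 9.42 CPM in p18mKO2-, and its log2 change was 0.78 (adjusted p = 0.156) without p18mKO2+ replicate 3. It was also not called without p18mKO2- replicate 2 (0.0823) or 3 (0.1). Chd3 was not called without p18mKO2+ replicate 1 or p18mKO2- replicate 1 or 3 (adjusted p of 0.0526 to 0.0687), nor without the libraries of both sexes (0.058, and 0.162 for Chd5). With limma on log2(TPM + 1), neither Chd3 (adjusted p = 0.0774) nor Chd5 (0.115) was called. Chd4, the NuRD ATPase of progenitors, chosen after its values were seen, stood at -0.07 ± 0.19.

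In the stage change of p18mKO2-, 4 of the 17 rose and 3 fell, with a median of -0.14, where 16.4% of all genes tested were called higher and 13.4% lower. Chd7 (-1.81 ± 0.19), Hells (-1.59 ± 0.17) and the ISWI ATPase Smarca5 (-0.76 ± 0.12) fell at E16.5 relative to E13.5, with edgeR adjusted p of 1.63e-05 to 0.000385. Chd5 (1.86 ± 0.42) and Chd3 (0.88 ± 0.17) were higher, as were Smarca1 (1.31 ± 0.31), the ISWI paralogue known from neurons, and Chd9 (0.61 ± 0.14), these 2 named after their values were seen. On log2(TPM + 1) neither Chd9 (0.07, adjusted p = 0.869) nor Chd3 (0.45, adjusted p = 0.0935) was called. In p18mKO2+ 1 of 17 was called, where 1.64% of all genes tested were called (1.08% higher and 0.554% lower). This was Hells at -0.95 ± 0.17 (edgeR adjusted p = 0.012). Hells was not called without E13.5 p18mKO2+ replicate 1 or 2 or E16.5 p18mKO2+ replicate 1 or 3 (0.0517 to 0.116), nor without the libraries of both sexes (0.0663). On log2(TPM + 1) it stood at -0.88 (limma adjusted p = 0.175). At E16.5, p18mKO2+ and p18mKO2- differed in 0 of 17 by edgeR, DESeq2 or limma-voom, and in 0 at an unadjusted p under 0.05. There edgeR called 0% of all genes tested. Between stages the p18 effect on Chd7 differed by 1.08 ± 0.26 (adjusted p = 0.0446), a call lost in 10 of the 12 fits that each left out 1 library.

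**Figure D4:**
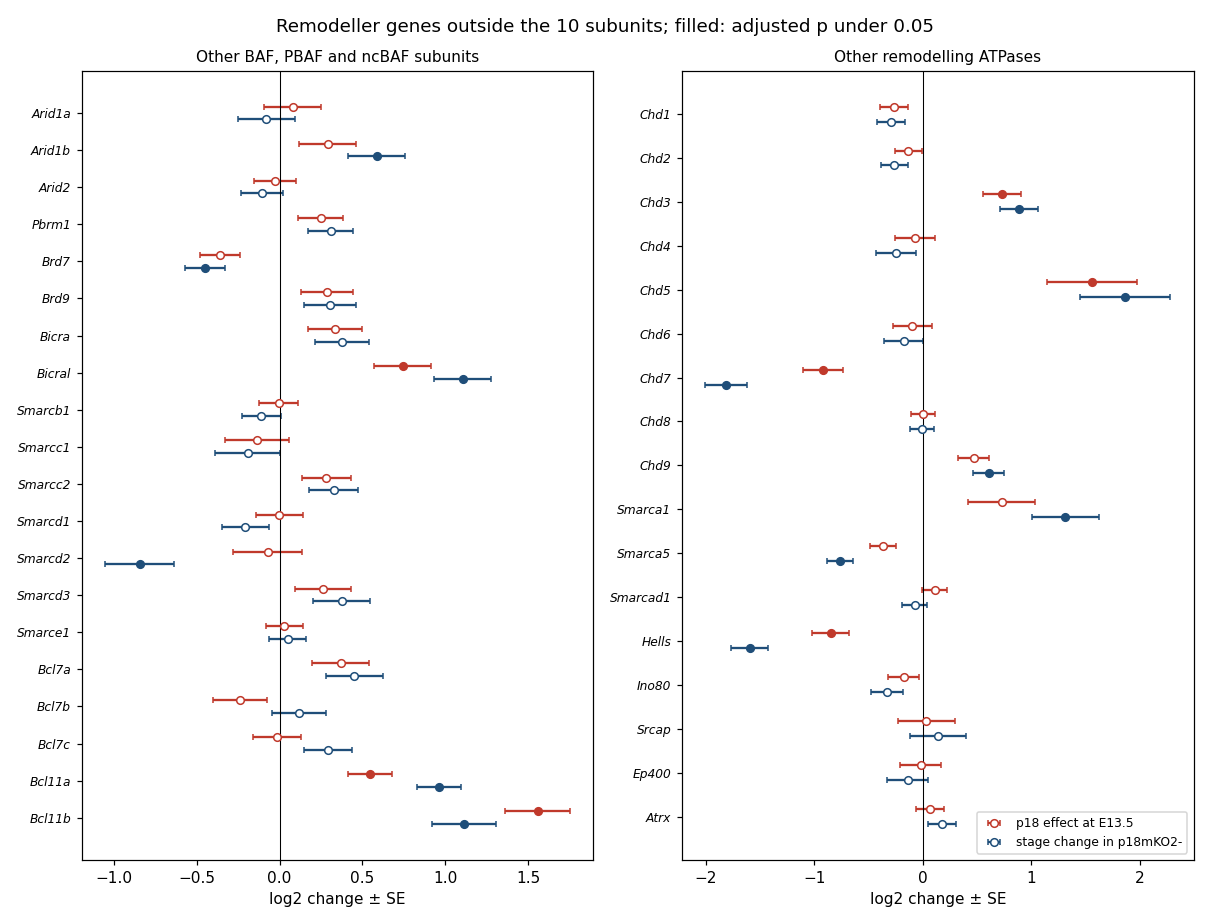
log2 change ± SE (edgeR) of 20 other BAF, PBAF and ncBAF subunits (left) and 17 ATPases of other remodellers (right), red for E13.5 p18mKO2+ over p18mKO2- and blue for E16.5 over E13.5 in p18mKO2-, filled where the adjusted p is under 0.05. The 2 comparisons share the E13.5 p18mKO2- libraries, and 7 of these 37 genes are filled in red and 13 in blue.

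Of 9 regulators linked to the exchange in mouse neurons, 1 rose and 2 fell in E13.5 p18mKO2+, where 7.29% of all genes tested were called higher and 3.49% lower. Mir124a-1hg, the host transcript of a miR-124 hairpin, stood at 131, 171 and 294 CPM in p18mKO2+ and 88.7, 73.9 and 114 CPM in p18mKO2- (1.11 ± 0.28, SE; edgeR adjusted p = 0.0215). Mir9-3hg, a host transcript of miR-9, ran the opposite way, at 113, 125 and 116 CPM in p18mKO2+ and 171, 148 and 248 CPM in p18mKO2- (-0.68 ± 0.17, adjusted p = 0.0216). Other hosts on the list were not called. Mir124-2hg, another miR-124 host, stood at 0.49 ± 0.34 (edgeR adjusted p = 0.395), with overlap between the groups. C130071C03Rik, whose locus holds the Mir9-2 hairpin, had 6939 to 10316 counts per library, against 1077 to 4238 for Mir9-3hg. Rest stood at 24.3, 23.7 and 25.2 CPM in p18mKO2+ and 37.2, 43.5 and 39.01 CPM in p18mKO2-, lower without overlap (-0.71 ± 0.21, adjusted p = 0.0454), and Ptbp1, which represses neuronal splicing, at -0.59 ± 0.22 (adjusted p = 0.11). These calls depended on single libraries. Mir124a-1hg stood at 0.72 (adjusted p = 0.103) without p18mKO2+ replicate 3 and was not called without p18mKO2- replicate 1 or 2 (0.0658 and 0.0862). Mir9-3hg stood at -0.44 (0.0761) without p18mKO2- replicate 3 and was not called without p18mKO2+ replicate 1 or 3 (0.0881 and 0.0749). Rest was not called without any 1 of the 6 E13.5 libraries (adjusted p of 0.0787 to 0.138), nor without E16.5 p18mKO2+ replicate 1 or 2 or p18mKO2- replicate 2 (0.0586 to 0.0684). Without the libraries of both sexes none of Mir124a-1hg (0.116), Mir9-3hg (0.101) and Rest (0.0688) was called. Nor was any of them called with limma on log2(TPM + 1) (adjusted p of 0.125, 0.244 and 0.364).

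Between stages in p18mKO2-, Mir124a-1hg rose (1.11 ± 0.28, edgeR adjusted p = 0.00824, but 0.70, adjusted p = 0.207, on log2(TPM + 1)) and Mir9-3hg (-1.50 ± 0.17), Rest (-1.25 ± 0.21) and Ptbp1 (-1.07 ± 0.23) fell, with adjusted p of 3.16e-05 to 0.00281. These are 4 of 9 genes, where 29.8% of all genes tested were called (16.4% higher and 13.4% lower). The other 5 were not called, among them the hosts C130071C03Rik and Mir124-2hg (0.31 ± 0.34, edgeR adjusted p = 0.542). At E16.5, edgeR, DESeq2 and limma-voom each called 0 of the 9 between p18mKO2+ and p18mKO2-, with 0 at an unadjusted p under 0.05. There edgeR called 0% of all genes tested. The p18 effect at E13.5 and the stage change in p18mKO2- share the E13.5 p18mKO2- libraries.

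The promoters of Actl6a and Actl6b are shown because this pair ran in opposite directions; each run is the 250 bases before the gene's start in RefSeq (GRCm38.p6, plus strand), with CCAAT boxes on either strand (CCAAT or ATTGG) in capitals. The RefSeq start of Actl6a lies inside the gene as given above, downstream of its GENCODE start at 32706298.
Actl6a, chr3:32708296-32708545: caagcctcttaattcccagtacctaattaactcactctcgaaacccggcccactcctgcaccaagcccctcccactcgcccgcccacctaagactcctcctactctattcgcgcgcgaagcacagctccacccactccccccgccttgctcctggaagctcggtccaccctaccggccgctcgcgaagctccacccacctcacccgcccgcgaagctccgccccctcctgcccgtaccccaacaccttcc
Actl6b, chr5:137553296-137553545: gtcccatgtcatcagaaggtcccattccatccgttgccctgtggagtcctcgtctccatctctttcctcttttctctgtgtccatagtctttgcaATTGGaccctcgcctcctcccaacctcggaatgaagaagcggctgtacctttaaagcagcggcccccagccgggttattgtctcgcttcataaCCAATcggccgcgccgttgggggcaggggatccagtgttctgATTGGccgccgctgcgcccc
Actl6b held 3 CCAAT boxes and Actl6a 0, where 33.8% of 32851 promoters of the same length held at least 1. The share with 3 was not computed. Among the 9 members with a promoter in the table, 4 held one (Actl6b, Dpf1, Dpf3 and Dpf2). None held an E2F letter string (TTTGGCGC, TTTCCCGC, TTTGCCGC or TTTCGCGC on either strand, in 1.86% of promoters), the cell cycle element TTTGAA (15.99%), TGACGTCA (1.55%), CAGATG (14.4%) or the first RE1 string TTCAGCACC (0.301%). CAGCTG was found in Phf10 (13% of promoters) and the second RE1 string GGACAG in Dpf2 (18.7%). These are letters in a short window and say nothing about the factors.

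Finally, patterns over the 12 libraries were compared for 10354 genes with a mean of at least 5 TPM, leaving out Gm-number, Rik, clone and mt- symbols. The genes with the pattern most like Actl6a were taken by the root mean square difference of log2 CPM, centred per gene. They were E2f7, Smc4, Gpsm2, Usp1 and Ccna2, at 0.0802 to 0.103 (log2 units), where the median over all compared genes was 0.537. The likeness covers differences between groups as well as between replicates.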

How the data were processed

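Total RNA libraries (polyA-selected, directional kit per the labels' protocols) were made from microdissected ventricular zone. Per the submitters' processing notes, cutadapt 3.4, STAR 2.7.2b, RSEM 1.2.31 and the mm10 (GRCm38) build were used; the labels give no strand setting. The expected counts per gene, the TPM values, and the lengths and posterior SDs are the authors' RSEM output as deposited, 1 file per library. The expected counts were rounded to whole numbers.

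Genes were filtered with filterByExpr (16798 of 55487 kept), scaled with TMM factors, and a quasi-likelihood model was fitted (edgeR 4.0.16, R 4.3.3) as 4 group means over 12 libraries, with 8 residual degrees of freedom. P-values were adjusted by Benjamini-Hochberg over all genes tested, and genes under 0.05 were called. SE is the log2 change divided by the root of F. Alternatives used RLE factors, DESeq2 1.42.0, limma-voom (limma 3.58.1), other filters, a replicate block, fewer libraries and limma on log2(TPM + 1). The method was tested on simulated data. The members and lists were chosen with earlier results of these data known. All 10 members were named in every comparison; from each other list up to 5 genes with the smallest p, and every called BAF subunit, were named. TPM shares and marker ratios were computed per library and given no test. Library totals (given in the report) limit precision mainly for Dpf3. Not tested were isoforms. The genes with the pattern most like Actl6b are not reported here.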

Additional observations from a re-analysis of the deposited data

Results flagged for a closer look

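The p18 effect differed between the stages for 3 of the genes described, by a direct edgeR test (effect at E16.5 less that at E13.5, log2 ± SE). Ss18l1 differed by -1.15 ± 0.23 (adjusted p = 0.0198), Bcl11b by -1.15 ± 0.27 (adjusted p = 0.0394) and Chd7 by 1.08 ± 0.26 (adjusted p = 0.0446). The effect of Ss18l1 was 0.02 at E16.5 and 1.17 at E13.5, that of Bcl11b 0.41 at E16.5 and 1.56 at E13.5, and that of Chd7 0.16 at E16.5 and -0.92 at E13.5. Without the libraries of both sexes none of these 3 differences was called (adjusted p = 0.119, 0.107 and 0.0606).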

How the results depend on the processing

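Over 1035 values of the 10 genes under alternatives, 960 kept their direction and side of the threshold, 22 gained a call, 28 lost one and 25 changed sign, 0 of these with a call in either fit. The number of the 10 genes called ranged over fits that each left out 1 library from 3 to 4 for the p18 effect at E13.5, 0 throughout for that at E16.5, 0 to 3 for the stage change in p18mKO2+, 6 to 7 for that in p18mKO2-, and 0 to 2 for the difference between stages. For the stage change in p18mKO2+ it was 2 with DESeq2, without a filter, with the replicate block and with only the libraries compared, and 0 without the libraries of both sexes or on log2(TPM + 1). Over all genes these fits called 839, 970, 547, 622, 116 and 155 in that order, against 275 in the main fit. For the difference between stages the number of the 10 genes called was 4 with DESeq2, 3 without a filter, 3 with the replicate block, and 0 without the libraries of both sexes or on log2(TPM + 1). Over all genes these fits called 1108, 1168, 767, 149 and 50 in that order, against 453 in the main fit. The cause was not tested.

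Sign changes concerned uncalled values. At E16.5 the p18 effect on Actl6a was 0.011 with limma-voom, 0.0095 with the replicate block, 0.0034 without the libraries of both sexes and 0.276 on log2(TPM + 1); Actl6b stood at -0.0751 and Smarca4 at 0.0646 without the libraries of both sexes. On log2(TPM + 1) Smarca4 stood at 0.234, Dpf3 at 0.0717 and Smarca2 at 0.22, and Dpf2 at E13.5 at 0.232. Phf10 in the stage change of p18mKO2+ was -0.0153 without the libraries of both sexes. Leaving out 1 library, the E16.5 effects ranged from -0.223 to 0.147 for Actl6a, -0.0737 to 0.144 for Actl6b, -0.00311 to 0.335 for Dpf2, -0.585 to 0.101 for Dpf3, -0.39 to 0.179 for Smarca2, -0.194 to 0.154 for Smarca4 and -0.0625 to 0.134 for Ss18l1. The stage change ranged from -0.0234 to 0.109 for Phf10 in p18mKO2+ and from -0.129 to 0.218 for Smarca4 in p18mKO2-.

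Deviations of same-numbered libraries from their group means correlated weakly (-0.0686 to 0.205). Such correlations cannot settle whether the replicate numbers pair samples, which the labels do not state. With the replicate block in edgeR, Actl6a at E13.5 had an adjusted p of 0.0494 (0.161 without). The differences between stages of Actl6b and Smarca2 had 0.00925 and 0.0453 (0.0668 and 0.0706 without). The stage change of Smarca2 in p18mKO2+ had 0.0473 (0.0826 without). The block called 0 genes at E16.5, 547 in the stage change of p18mKO2+ (275 without) and 767 in the difference (453 without). Leaving out 1 library, all-gene calls ranged from 927 to 2383 at E13.5. At E16.5, 81 genes were called without a filter.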

Other observations

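The annotation lists 46 transcripts for Smarca2 (GENCODE, GRCm38), of 421 to 5921 bases and 41 of them under 2500 bases, and 4 for Smarca4, of 3800 to 6376 bases and 0 under 2500. The deposited length of Smarca2 lay between 1363 and 2121 bases over the libraries. Smarca2 made up a larger share of the ATPase pair by TPM than by CPM: 60.6% and 31.2% in E16.5 p18mKO2+, 59.9% and 33.6% in E16.5 p18mKO2-, 45.5% and 19.1% in E13.5 p18mKO2+, and 38.1% and 12.6% in E13.5 p18mKO2-. Which Smarca2 transcripts were present was not tested.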
